A study of Mus musculus with 80 samples.

Results

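The subject is 8 T-box transcription factor genes in mouse muscle stem cells (MuSCs) of extraocular muscles (EOM) and of the limb muscle tibialis anterior (TA). Tbx1, Tbx2, Tbx3, Tbx4, Tbx5, Tbx15, Tbx18 and Tbx20 were taken by gene symbol as regulators of branchial (pharyngeal arch), forelimb and hindlimb programmes. They are 8 of the 17 mouse T-box genes and of the 25900 genes in the deposited table.

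Donors were 10 male littermates carrying Tg:Pax7-nGFP, a transgene that puts nuclear GFP under control of Pax7 and so marks MuSCs, on a C57BL/6;DBA2 F1/JRj background. They were aged 7.6 weeks in Experiment 1 (4 mice) and 7 weeks in Experiment 2 (6 mice). Pre-graft libraries held RNA of 500 cells sorted on GFP from EOM or from TA. For the grafts, EOM and TA cells of a donor were injected into opposite TA muscles of 1 host, each muscle injured beforehand with cardiotoxin, and GFP-positive cells were sorted again (at day 21 per the labels, whereas the study's text gives a later or wider time). Hosts were Rag2-/-;γC-/- mice on C57BL/6J, which lack T, B and natural killer cells but keep myeloid cells. Grafts of TA cells yielded 16 to 67 sorted cells, 6 EOM grafts yielded 9 to 60, and the EOM graft of mouse 4 of Experiment 1 yielded the most of those compared. These numbers are from the labels, and the study's supplement gives others for some grafts. Of 40 RNA libraries, 30 passed the study's quality control and were compared, namely 8 pre-graft EOM, 8 pre-graft TA, 7 EOM grafts and 7 TA grafts. All grafts went into injured muscle, and each graft compared held fewer cells than the 500 of a pre-graft library. Engraftment, injury, time in the host and the number of cells per library therefore cannot be told apart.

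T-box factors bind DNA through a shared domain named after Brachyury, the product of the gene T. Tbx1 acts in the pharyngeal mesoderm that builds jaw and facial muscles, whereas extraocular muscles form without it. Tbx5 and Tbx4 drive outgrowth of the forelimb and of the hindlimb, Tbx2 and Tbx3 are mainly repressors that restrain cell cycle inhibitors, Tbx15 acts in fast muscle fibres and the skeleton, Tbx18 marks mural cells and the epicardium, and Tbx20 is a heart factor.

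Reads that fell on genes numbered 963669 to 4170442 per pre-graft library and 1357302 to 2899492 per graft library. A count of 0 allows up to 3 reads, which stood at 1.05 to 4.64 RPM (reads scaled to the total of the library) before and 1.41 to 2.63 RPM after grafting. Mitochondrial genes took a mean of 4.48% and 11.3% of reads in EOM and TA before and 31.4% and 24.9% after grafting. The 10 MuSC markers, among them Pax7, Myf5 and Calcr, were present in every group, with sums of 13499 to 22569 RPM before grafting and 324 to 13972 RPM in the grafts. The 8 endothelial markers summed to 17.6 to 2057 RPM before and 200 to 6025 RPM after grafting. Intervals and limits given here cover counting error only, since PCR reads without molecular identifiers are not independent molecules. In these pooled cells, fewer cells of a type and less RNA per cell cannot be told apart.

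Tbx1 (ENSMUSG00000009097) lies on chr16:18581713-18586969, minus strand, in GRCm38. Its start region is shown because, of the members tested, Tbx1 differed most between the muscles. RefSeq sequences (GRCm38.p6) for 5 start windows, of Tbx1, Tbx4, Tbx18 and Tbx20, matched the members by symbol, each of 300 bases around a start. Both Tbx1 windows lie upstream of the span counted in the deposited table, on the minus strand at chr16:18588850-18589149 and chr16:18590622-18590921, and read as follows with each CpG in capitals.
Tbx1 near start: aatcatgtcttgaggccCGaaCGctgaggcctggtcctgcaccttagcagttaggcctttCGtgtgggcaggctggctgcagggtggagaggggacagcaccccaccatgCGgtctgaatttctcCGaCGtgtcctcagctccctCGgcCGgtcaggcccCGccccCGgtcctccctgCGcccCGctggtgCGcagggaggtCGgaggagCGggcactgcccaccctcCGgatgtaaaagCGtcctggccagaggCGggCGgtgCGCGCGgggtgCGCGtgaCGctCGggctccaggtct
Tbx1 far start: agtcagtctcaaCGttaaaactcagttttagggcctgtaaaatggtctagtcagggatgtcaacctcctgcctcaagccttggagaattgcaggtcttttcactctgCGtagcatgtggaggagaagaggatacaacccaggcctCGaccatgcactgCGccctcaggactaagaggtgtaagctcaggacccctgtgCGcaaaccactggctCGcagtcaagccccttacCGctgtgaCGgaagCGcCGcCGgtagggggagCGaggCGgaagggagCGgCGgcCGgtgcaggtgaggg
The near window held 26 CpGs, more than 83.1% of the 32851 windows of the same length, and the far window held 16, where the median of all windows was 7. The T-box half-site GGTGTGA, searched on both strands, is not among the letters of either window and is held by 3.98% of all windows. The E-box CANNTG, the site class of myogenic factors, was found in 0 places in the near and 2 in the far window, and 72.3% of all windows hold it. The bisulfite libraries of the same cells were not analysed here.

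Whether cranial and limb MuSCs differ in T-box genes was asked first of the pre-graft cells. Tbx1 was high in TA and near absent from EOM, Tbx15 was high in EOM and lower in TA, and the other 6 members were low in both. Of 6 members that passed the filter on low values, Tbx1 was called higher and Tbx15 lower in TA by limma (adjusted p under 0.05 and a log2 difference beyond 1), beside 1.26% of all 13217 genes called higher and 3.31% called lower. Tbx5 and Tbx20 did not pass the filter.

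**Figure D1:**
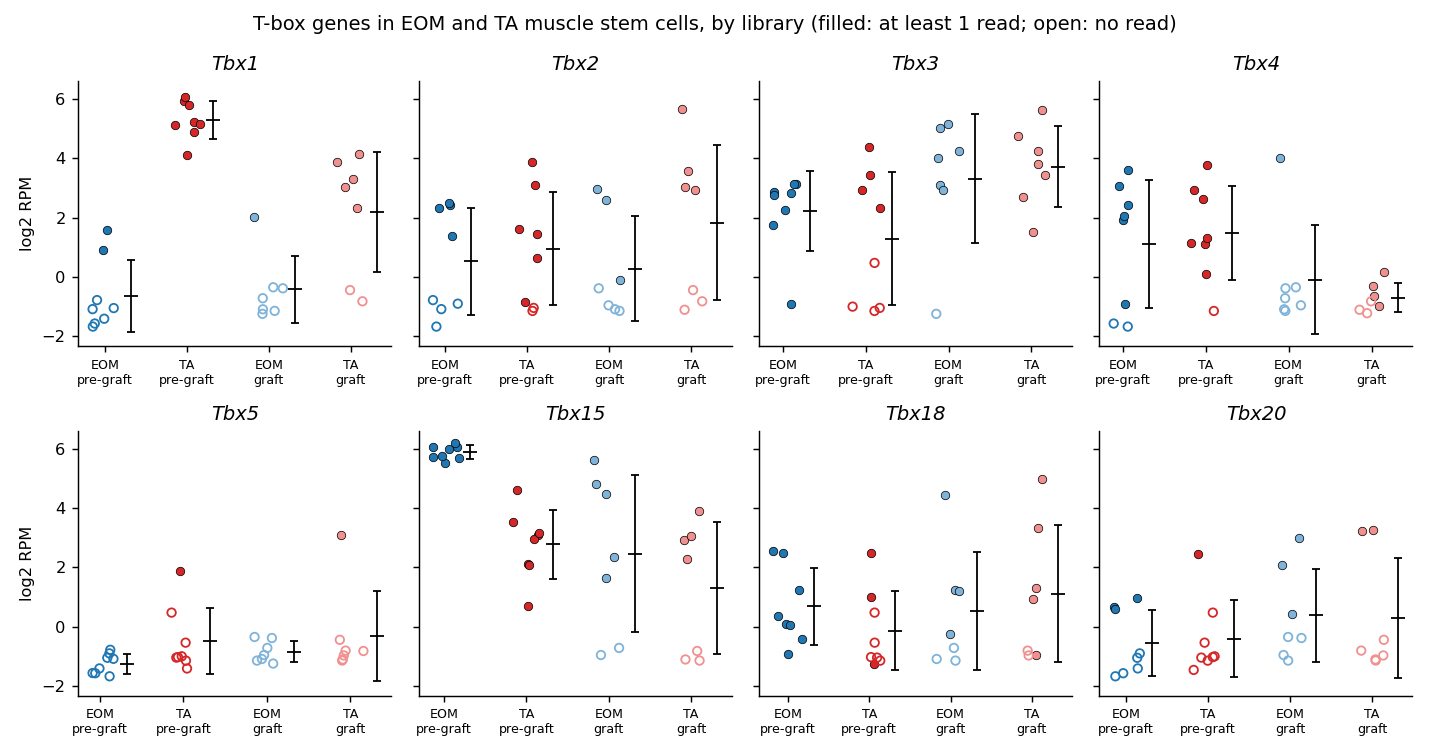
Deposited log2 RPM of the 8 genes in each of the 30 libraries. The x axis gives the group, filled points have at least 1 read, open points have none and mark the floor of their library, and bars give mean and SD. Tbx1 in pre-graft TA and Tbx15 in pre-graft EOM stand clear of the other pre-graft group, at 4.11 to 6.06 and 5.52 to 6.20.

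Tbx1 had 36 to 132 reads in the 8 pre-graft TA libraries, with a median of 61.5, or 42.2 ± 17.0 RPM (SD, n = 8). In pre-graft EOM it had no read in 6 libraries and 5 reads in each of the other two, or 0.609 ± 1.17 RPM (SD, n = 8). The groups did not overlap, as was the case for 0.477% of all genes in that direction. The log2 difference was 5.92 (SE 0.57, adjusted p = 4.31e-07, limma), on a scale where a gene without a read is set at 0.9 of a read. Pooled over libraries, 576 reads in TA against 10 in EOM made a ratio of 74.2 (95% exact interval 40.0 to 156). TA was higher in 7 of 7 donors with both libraries, by 4.35 to 6.72 on the log2 scale. The difference was 6.14 within Experiment 1 (2 TA, 3 EOM libraries) and 5.75 within Experiment 2 (6 and 5).

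Tbx15 (ENSMUSG00000027868, chr3:99240381-99354259, plus strand) had 87 to 195 reads in pre-graft EOM, with a median of 112.5, or 59.5 ± 9.68 RPM (SD, n = 8). In pre-graft TA it had 4 to 49 reads, with a median of 10.5, or 8.93 ± 7.11 RPM (SD, n = 8). The groups did not overlap, which held for 1.81% of all genes in that direction, and every TA library still had reads. The log2 difference of TA over EOM was -3.10 (SE 0.42, adjusted p = 3.77e-05, limma), and TA was lower in 7 of 7 donors. It was -3.17 within Experiment 1 and -3.10 within Experiment 2. Fitted together with the grafts, whose values spread more widely, the same difference had an adjusted p of 0.0571.

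Per kilobase of exon, which allows genes to be compared roughly, Tbx15 in EOM had a mean level of 15.9 RPM and Tbx1 in TA of 12.0 RPM. The annotation that gave exon lengths has other spans for Tbx1, Tbx5 and Tbx20 than those counted, so their levels are approximate. The means of the other 6 members in pre-graft cells lay at or under 1.31 RPM per kilobase. The fibro-adipogenic marker Dcn, a matrix proteoglycan, was also lower in TA before grafting (log2 means 0.92 and 6.53). Of 7 markers of that list tested, Dcn alone was called, and 2 lay above 0 in TA, Ly6a (2.39) and Col3a1 (0.28). The sums of the 8 markers overlapped at 1960 to 3626 RPM in TA and 1985 to 4031 RPM in EOM. The highest means of the list were those of Dpt (10.29 in TA, 10.84 in EOM) and Col3a1 (9.80 and 9.52), so the sums say little about Dcn. The part of such cells in the Tbx15 difference was not tested.

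Of the limb pair of the family, Tbx4 was tested between the muscles and not called, and Tbx5 was not tested. Tbx4 (ENSMUSG00000000094, chr11:85886422-85916097, plus strand), the hindlimb factor, had 0 to 34 reads in pre-graft TA and 0 to 23 in pre-graft EOM, with medians of 4 and 9.5. The groups overlapped, and the log2 difference was 0.37 (SE 0.88, adjusted p = 0.82). Tbx5 (ENSMUSG00000018263, chr5:119834663-119885218, plus strand), the forelimb factor, had no read in any pre-graft EOM library, where 3 reads would be 1.05 to 1.95 RPM. It had 9 reads in 1 pre-graft TA library and none in the other 7.

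The repressors Tbx2 (ENSMUSG00000000093, chr11:85832551-85841948, plus strand) and Tbx3 (ENSMUSG00000018604, chr5:119670669-119684724, plus strand) were low in both muscles. Tbx2 had 0 to 35 reads in pre-graft TA and 0 to 15 in pre-graft EOM, with a log2 difference of 0.43 (SE 0.87, adjusted p = 0.79). Tbx3 had 1 to 25 reads in the 8 EOM libraries, whereas 4 TA libraries had 12 to 38 reads and the other 4 had none. Its log2 difference was -0.94 (SE 0.86, adjusted p = 0.52) and turned to 0.27 in edgeR and 0.30 in DESeq2. Tbx3 shares its span with Gm2301 on the opposite strand, and 49.6% to 50.5% of the reads per library lay on the sense strand, so reads of the pair cannot be told apart. Gm2301 itself had at most 4 reads in any pre-graft library.

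Tbx18 (ENSMUSG00000032419, chr9:87702800-87731260, minus strand) had reads in 8 of 8 pre-graft EOM libraries, 1 to 15, and in 3 of 8 TA libraries, 1 to 10. Its log2 difference was -0.82 (SE 0.69, adjusted p = 0.48) and the groups overlapped. Tbx20 (ENSMUSG00000031965, chr9:24720812-24774303, minus strand) had at most 4 reads in 3 EOM libraries and 13 in 1 TA library.

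The effect of grafting was then read in TA cells returned to TA. Against pre-graft TA, Tbx1 and Tbx4 were called lower and Tbx3 higher, 3 of the 6 members that passed the filter. Of all 13076 genes tested, 30.9% were called lower and 3.79% higher, and the median gene stood at -1.09. These shares depend on the scaling. Centring on the median gave 1003 genes higher against 743 lower, leaving mitochondrial genes out of the total gave 897 against 942, and DESeq2 gave 1161 against 543, and Tbx1 was called lower under all 3.

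Tbx1 had 10 to 31 reads in 5 of the 7 TA grafts and none in the other two, or 7.90 ± 6.80 RPM (SD, n = 7). The highest graft, at log2 4.14, just passed the lowest pre-graft library, at 4.11. The log2 change was -3.08 (SE 0.75, adjusted p = 0.0051, limma), lower in 7 of 7 donors (-6.74 to -0.81). Scalings that reduce the shift of all genes left it at -2.19 (centring on the median, adjusted p = 0.026) and -2.30 (without mitochondrial genes, 0.019). The median gene then stood at -0.19 and -0.30. With the median gene at -0.08 in edgeR and 0.02 in DESeq2, Tbx1 changed by -1.80 (adjusted p = 0.087) and -1.73 (0.018). The 3 TA grafts with the highest Tbx1 levels, 9.85 to 17.6 RPM, were the 3 with the highest sums of MuSC markers, 7815 to 10831 RPM, and with 66 or 67 sorted cells by the labels. The grafts without a Tbx1 read had 16 and 26 cells and MuSC marker sums of 324 and 2543 RPM. The remaining grafts, of 24 and 16 cells, had 17 and 10 Tbx1 reads, so grafts of 16 cells lay on both sides. The part of marker level and cell number in the change was not tested.

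Tbx4 fell to 0 to 2 reads in every TA graft, from 7 of 8 libraries with reads before. The log2 change was -2.19 (SE 0.73, adjusted p = 0.025), lower in 6 of 7 donors, and 64 pooled reads before against 5 after made a ratio of 9.72 (95% exact interval 3.96 to 30.9). Of these 64 reads, 34 came from pre-graft TA of mouse 6 of Experiment 2, and the interval leaves out the spread between mice. The call was lost with centring on the median (-1.29, adjusted p = 0.25), without mitochondrial genes (-1.40, 0.21), in Experiment 2 alone (-2.09, 0.081), when the donor was a replicate block (-1.98, 0.065), and in edgeR (-2.29, 0.24) and DESeq2 (-2.42, 0.17). It was also lost in 2 of 15 fits without 1 library, pre-graft TA of mouse 4 of Experiment 1 or of Experiment 2, with adjusted p up to 0.051.

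Tbx3 had 5 to 53 reads in 6 TA grafts and more, at 49.3 RPM, in the seventh, with a median of 27 reads, or 18.5 ± 15.7 RPM (SD, n = 7), against 5.54 ± 7.44 RPM (SD, n = 8) before. The groups overlapped, and the log2 change was 2.43 (SE 0.95, adjusted p = 0.048), higher in 6 of 7 donors. This call was lost in 10 of 15 fits that left out 1 library, with adjusted p up to 0.099, with no filter (adjusted p = 0.081), with experiment as covariate (0.052), in Experiment 2 alone (2.08, 0.14), and in edgeR (2.28, 0.17) and DESeq2 (2.41, 0.077). Gm2301 had reads in 4 of the TA grafts, at most 11. Sums of the 9 mural and smooth muscle markers were 714 to 6782 RPM in TA grafts and 701 to 2125 RPM before. The 2 TA grafts with the highest sums, 6682 and 6782 RPM, had the 2 highest Tbx3 levels, 26.8 and 49.3 RPM, and the graft with the lowest sum had the lowest level, 2.85 RPM. Their part was not tested.

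Other members did not pass the test in TA. Tbx15 had 0 to 26 reads in TA grafts, none in 3, with a log2 change of -1.47 (SE 0.91, adjusted p = 0.19). Tbx2 had 101 reads in 1 TA graft of 16 cells, 12 to 21 in 3 and none in 3, with a log2 difference of 0.88 (SE 1.04, adjusted p = 0.50). Tbx18 had 50 reads in 1 TA graft, 20 in another and at most 4 in the rest, with a log2 difference of 1.25 (SE 0.89, adjusted p = 0.26). Tbx20 had 20 and 15 reads in a pair of TA grafts, and Tbx5 had 18 in the first of these, with none in the others.

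**Figure D2:**
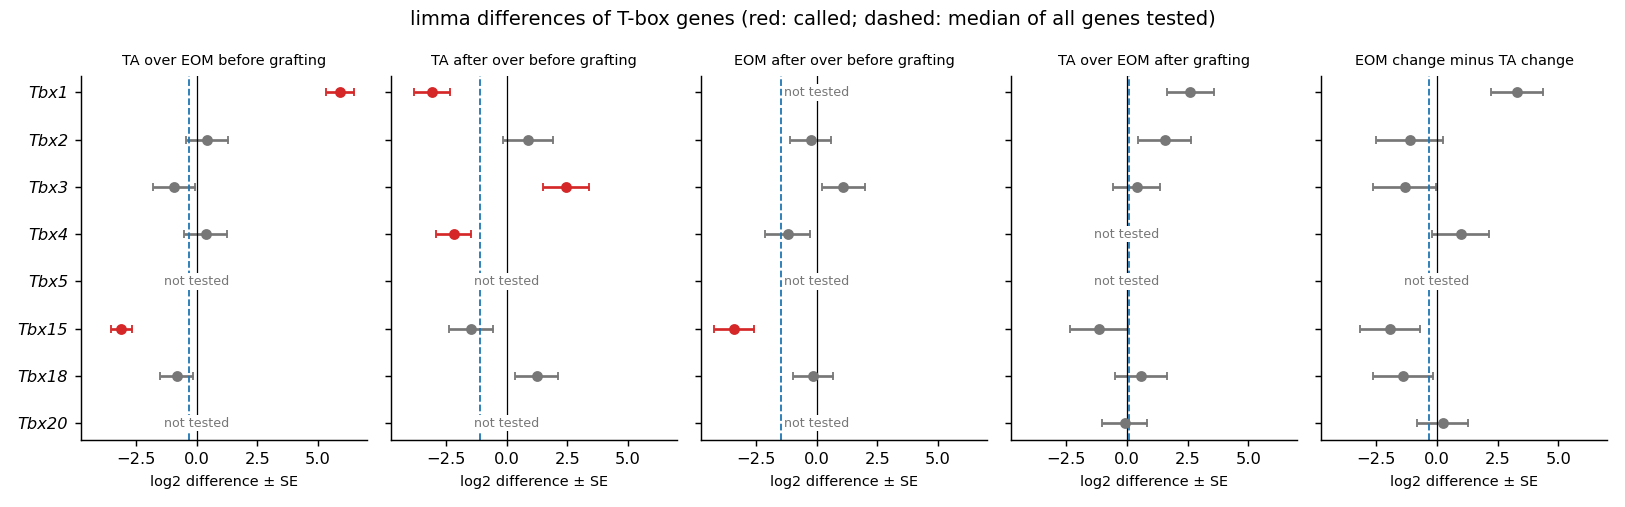
Log2 differences of the 8 genes in 5 comparisons, with SE from limma. Red points were called, grey points were not, and the dashed line is the median of all genes tested, which lies at -1.09 and -1.48 in the comparisons of grafts with pre-graft cells.

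EOM cells placed in TA were compared with pre-graft EOM in the same way. Tbx15 was called lower, 1 of the 5 members that passed the filter, where 55.8% of all 13094 genes were called lower, 3.51% higher, and the median gene stood at -1.48. This balance also depends on the scaling, since centring on the median gave 871 genes higher against 634 lower, and leaving mitochondrial genes out of the total gave 727 against 924. Tbx15 was called lower under both.

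Tbx15 had 104, 44 and 32 reads in 3 EOM grafts, 6 in each of another pair and none in the remaining pair, or 15.4 ± 18.5 RPM (SD, n = 7). The library with 104 reads overlapped the pre-graft range of log2 5.52 to 6.20, at 5.61, and the other 6 lay below it. The log2 change was -3.41 (SE 0.82, adjusted p = 0.0028, limma), lower in 6 of 6 donors (-7.15 to -0.45). It was -0.15 in Experiment 1, which holds 1 EOM graft, and -4.0033 in Experiment 2. Centring on the median gave -2.16 (adjusted p = 0.039), scaling without mitochondrial genes -2.35 (0.031), and the call was lost in edgeR (-1.33, 0.21) and DESeq2 (-1.30, 0.11). The 3 EOM grafts with the highest Tbx15 levels, 22.2 to 49.0 RPM, were those with the highest sums of MuSC markers, 5684 to 13972 RPM, and the 2 without a read had the lowest sums, 1403 and 1569 RPM. The part of this in the change was not tested.

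Tbx1 stayed near absent. In 6 of 7 EOM grafts it had no read, where 3 reads would be 1.41 to 2.63 RPM, and the seventh, of 9 sorted cells, had 7 reads. It did not pass the filter, and without a filter the log2 change was 0.22 (SE 0.54, adjusted p = 0.75). Tbx4 had 34 reads in the EOM graft with the most cells and none in the other 6, with a log2 change of -1.21 (SE 0.94, adjusted p = 0.26) that moved to 0.04 when libraries were centred on their median.

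Tbx3 had 9 to 69 reads in 6 EOM grafts and none in the graft with the most cells. Its log2 change was 1.09 (SE 0.88, adjusted p = 0.28), and without that library it was 1.85 and called (adjusted p = 0.025). edgeR and DESeq2 on all 7 grafts also called it higher (2.78, adjusted p = 0.025 and 2.91, 0.00082). The library with no Tbx3 read had the lowest endothelial marker sum, 200 RPM. The graft with 32.4 RPM of Tbx3 had the highest sum, 5157 RPM. The graft with the most Tbx3, 36.2 RPM, had only the median sum of the 7 EOM grafts, 2617 RPM. Of the mural and smooth muscle markers, the graft with 36.2 RPM of Tbx3 had the highest sum, 5324 RPM. The graft with the lowest mural sum, 550 RPM, had 8.58 RPM of Tbx3. The library with no Tbx3 read had a mural sum of 845 RPM, and the graft with 32.4 RPM had 2439 RPM. The part of endothelial or mural markers was not tested. Tbx2 (-0.25, SE 0.86, adjusted p = 0.80) and Tbx18 (-0.16, SE 0.82, adjusted p = 0.87) were not called, and their sign was positive under centring, without mitochondrial genes, in edgeR and in DESeq2. Tbx20 had 17, 8 and 2 reads in 3 EOM grafts, and Tbx5 had none in any.

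**Figure D3:**
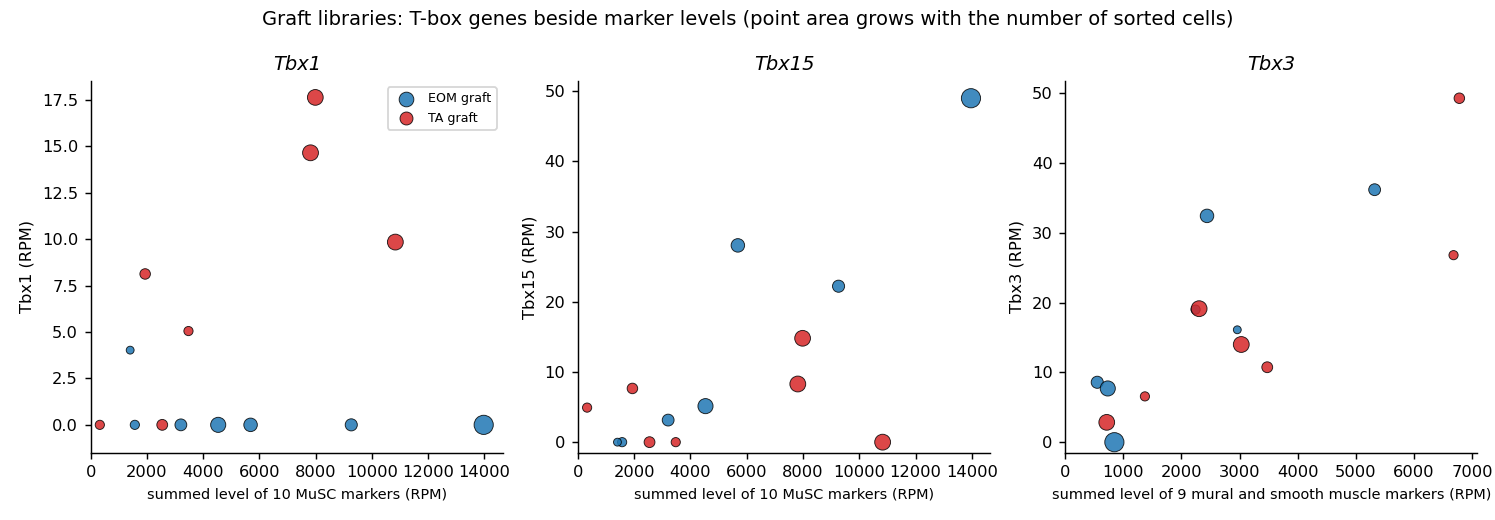
RPM of Tbx1, Tbx15 and Tbx3 in the 14 grafts against the summed RPM of MuSC markers (first and second panel) or of mural and smooth muscle markers (last panel), with point area growing with the number of sorted cells. In EOM grafts Tbx1 lies at 0 even where MuSC markers sum to 13972 RPM.

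Whether EOM and TA cells differ once both reside in TA was asked of the 7 EOM and 7 TA grafts. No member was called, and limma called 0% of the 12377 genes in either direction. At an unadjusted p under 0.05 there were 452 genes, 3.65%, and at adjusted thresholds edgeR called 0 and DESeq2 called 2 higher and 1 lower, none a member. Tbx1 was at log2 2.20 ± 2.02 in TA grafts and -0.41 ± 1.13 in EOM grafts (SD, n = 7 each), with reads in 5 of 7 and 1 of 7. The difference was 2.62 (SE 0.98, unadjusted p = 0.011 and adjusted p = 1.00 in limma), higher in TA in 5 of 6 donors, and 100 pooled reads against 7 made a ratio of 14.04 (95% exact interval 6.57 to 35.8). Tbx15 was at 1.30 ± 2.22 in TA and 2.46 ± 2.64 in EOM grafts (SD, n = 7 each), a difference of -1.16 (SE 1.20, adjusted p = 1.00), with 3 of 6 donors each way. A difference as large as the pre-graft one, -3.10, is within 2 SE of this value, so these grafts do not show whether the Tbx15 difference closed.

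Whether the change on grafting differed between muscles was tested in a model of all 4 groups. EOM libraries enter only the EOM change and TA libraries only the TA change. Of 7 members tested none was called and only Tbx1 had an unadjusted p under 0.05, where 0.208% of 14428 genes were called and 7.22% had such a p. For Tbx1 the EOM change minus the TA change was 3.30 (SE 1.07, unadjusted p = 0.0037, adjusted p = 0.38 in limma), with EOM at the floor before and after, and for Tbx15 it was -1.94 (SE 1.25, adjusted p = 0.79). edgeR and DESeq2 also called 0 members, and called 1 higher and 1 lower, and 71 higher and 32 lower, of all genes.

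The study set the effect of grafting aside by subtracting each gene's mean TA change from all graft values, and the same step was applied here. For Tbx1 the subtracted change was -3.08, which raised the mean of EOM grafts from -0.41 to 2.67. On a scale with pre-graft EOM at 0 and pre-graft TA at 100, the EOM grafts moved from 3.68 to 55.8. The 6 EOM grafts without a Tbx1 read stood at 1.84 to 2.74 after correction, so their place between the muscles came from the subtraction and the floor, not from reads. TA grafts return to 100 by construction. For Tbx15, on the same scale, EOM grafts stood at 110 as deposited and at 62.5 after -1.47 was subtracted, with corrected values of 0.52 to 7.09. The 2 EOM grafts without a Tbx15 read were among these, at 0.52 and 0.76.

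**Figure D4:**
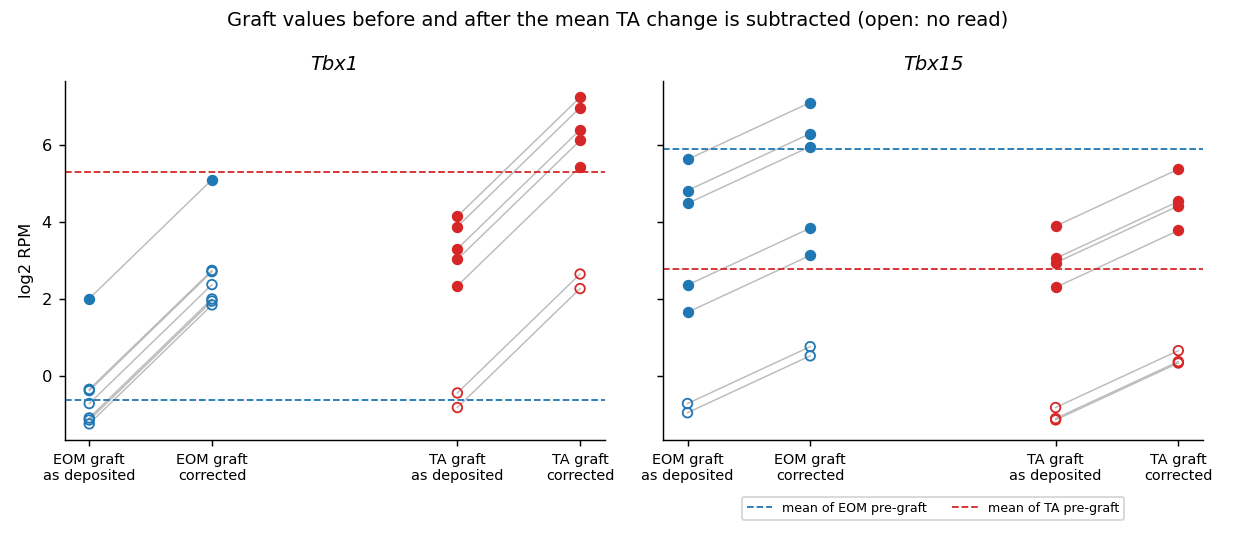
Log2 RPM of Tbx1 and Tbx15 in each graft as deposited and after subtraction of the mean TA change, joined by a line, with open points for libraries without a read. Dashed lines mark the pre-graft means, and the open Tbx1 points of EOM grafts rise to 1.84 to 2.74.

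Among the other 9 T-box genes, Mga, a large T-box protein that also dimerises with Max, was read in 30 of 30 libraries, 19 to 294 reads. It was called lower in EOM grafts than before (log2 -1.03, SE 0.39, adjusted p = 0.027) and was not called elsewhere. In EOM grafts 55.8% of all 13094 genes were called lower, and the median gene fell further, to -1.48. Tbx6, a somite factor, was read in 25 libraries with at most 18 reads, Tbx21 in 9, Tbr1 in 7, Eomes in 2 and Tbx10, Tbx19 and Tbx22 in 1 each. T, which encodes Brachyury, had no read in any of the 30. The 2 of these 9 genes tested between pre-graft muscles were not called.

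Genes that act with the family in head and limb were described by lists. These were chosen with earlier results of these data known, and the study had reported Pax3, Lbx1 and Hox genes as higher in TA. Their called shares are therefore a description, not a test of the lists. Of 7 head mesoderm genes tested before grafting, 3 were lower in TA and 0 higher, with a median of -1.29 beside -0.30 for all genes, of which 3.31% were called lower and 1.26% higher. Among them were Foxc1 (-3.94, SE 0.62, adjusted p = 0.00021) and Tcf21 (-2.69, SE 0.67, adjusted p = 0.015). Of 9 limb field genes tested, 4 were higher in TA and 0 lower, with a median of 1.58, beside the same shares. They were Hoxc10 (6.81, SE 0.49, adjusted p = 5.71e-09), Hoxc9 (5.78, SE 0.49, adjusted p = 5.11e-08), Lbx1, a gene of migrating limb muscle precursors (5.53, SE 0.49, adjusted p = 1.01e-07), and Pax3 (4.98, SE 0.69, adjusted p = 3.95e-05). Hoxc9, Hoxc10 and Lbx1 had no read in pre-graft EOM, so their fitted differences depend on the floor.

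In TA grafts, 6 of 10 limb field genes tested were lower and 0 higher, with a median of -1.94 beside -1.09 for all genes, and 4 of 6 head mesoderm genes were lower and 1, Foxc1, higher, where 30.9% of all genes were called lower and 3.79% higher. In EOM grafts, 6 of 7 head mesoderm genes were lower and 0 higher, with a median of -2.62 beside -1.48, and none of 5 limb field genes was called, where 55.8% of all genes were called lower. Of the limb field genes, Hoxc9, Hoxc10 and Lbx1 also differed between the changes of the 2 muscles (4.75, 4.87 and 5.23, adjusted p = 0.021, 0.014 and 0.00010 in limma). Each was at its floor in EOM before grafting, where a fall cannot show. Lbx1 had no read in EOM grafts either, so its difference holds no gain of reads in EOM.

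Corepressors and targets of the repressor branch were not called between pre-graft muscles, 0 of 10 and 0 of 6. Of all genes, 4.56% were called there in either direction. In grafts, 3 of 10 corepressors were lower in TA and 8 of 10 in EOM, where 30.9% and 55.8% of all genes were. Their medians were -0.91 in TA, beside -1.09 for all genes, and -1.38 in EOM, beside -1.48. The widest was Tle2, a Groucho corepressor (-3.59, SE 0.83, adjusted p = 0.0038 in TA and -3.63, SE 0.76, adjusted p = 0.0012 in EOM). Of 6 Tbx2 and Tbx3 targets tested in TA grafts, 1 was higher and 1 lower. Of 4 tested in EOM grafts, 1 was higher and 0 lower. Among all genes, 3.79% were called higher in TA and 3.51% in EOM. The higher target was Gja1, which encodes connexin 43, in TA grafts (2.23, SE 0.55, adjusted p = 0.0057) and in EOM grafts (1.72, SE 0.36, adjusted p = 0.0011). Ndrg1 was lower in TA grafts (-1.04, SE 0.37, adjusted p = 0.035), near the median of all genes, -1.09.

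The genes whose log2 RPM followed each member most closely over the 30 libraries were ranked by Pearson r among 14427 others. The libraries share 4 groups and differ in depth, so r is a description. For Tbx1 they were Lamc3 (0.88), the long noncoding RNA Hotair (0.85), Hoxc10 (0.85), Sim1 (0.83) and Lbx1 (0.83), and over the 16 pre-graft libraries these reached 0.88 to 0.96. For Tbx15 they were Pgs1 (0.89), Tctex1d2, Ccdc46, Olfml3 (0.84 each) and Fsd1l (0.83). For Tbx3 they were Lrrc8c (0.86), Anxa3 (0.82), Pik3cb, Gm20412 and Ccnd2 (0.80 each). For Tbx4 the best was Ttf2 (0.79), for Tbx2 Ldb3 (0.63) and for Tbx18 Pde4a (0.63). Tbx5 and Tbx20, read in 2 and 9 libraries, were not ranked.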

How the data were processed

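RNA-seq of 40 libraries from 10 mice was used, 30 of which passed the study's quality control (over 500000 reads, at least 70% in genes and 65% in exons, and 1 outlier removed). The authors trimmed reads with Trim Galore 0.4.4 and aligned them to GRCm38 with HISAT2 2.1.0, per the labels and methods. The gene table deposited by the authors holds log2 RPM from Seqmonk. Library reports deposited by the authors hold read counts and percent of reads in genes, exons and mitochondria. The annotation release is not given in the sources used here. Each library's lowest value stands for 0.9 of a read, and 99.993% of values came out as whole reads within 0.02.

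Groups were compared with limma 3.58.1 (R 4.3.3, trend over the mean) on log2 RPM, for genes above 1 in at least 4 libraries, adjusted by Benjamini-Hochberg over all genes tested. Genes with adjusted p under 0.05 and a log2 difference beyond 1 were called. Fits were tested on simulated data. edgeR 4.0.16 and DESeq2 1.42.0 on recovered reads, other scalings, filters, covariates and left-out libraries were alternatives. Exon lengths are from GENCODE vM21, in which the spans of Tbx1, Tbx5 and Tbx20 differ from the table.

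Same-numbered EOM and TA libraries come from the same mouse, which pairs 6 or 7 of them per comparison. Deviations from group means correlated by -0.21 to 0.19 within pairs. The members and gene lists were chosen with earlier results of these data known. Named genes are the members, the other T-box genes, up to 6 called genes of each list with the widest difference, and the 5 genes nearest each member read in at least 10 libraries. Libraries of a group come from different mice, all littermates per the methods. The values of 1 gene of the head mesoderm list are not reported here.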

Additional observations from a re-analysis of the deposited data

Results flagged for a closer look

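Of 30 combinations of member and group with reads, 6 held a library far from the rest by Dixon's criterion. It flags about 1 of 20 groups of normally distributed values. Many groups here hold libraries without a read, set at the floor, so that rate does not apply and no excess can be read from the 6. Values are log2 RPM. Among EOM grafts, Tbx1 stood at 2.01 in the library of 9 cells, with 7 reads, Tbx18 at 4.45 in that of 46 cells, and Tbx4 at 4.00 and Tbx3 at -1.24 in that with the most cells of those compared, the single EOM graft of Experiment 1 that passed. Among pre-graft EOM, Tbx3 stood at -0.89 in mouse 5 of Experiment 1, with 1 read. Among TA grafts, Tbx5 stood at 3.11 in mouse 3 of Experiment 1, with 18 reads in 24 cells.

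Members also had more than 3 reads in libraries left out of the comparisons. Of pre-graft libraries, EOM of mouse 3 of Experiment 2 had 97 reads of Tbx15 and 23 of Tbx3, with none of Tbx1. Of left-out EOM grafts, mouse 1 had 64 reads of Tbx3, 15 of Tbx18, 7 of Tbx15 and 4 of Tbx20, mouse 3 had 25 of Tbx4 and 6 of Tbx3, and mouse 5 had 29 of Tbx15, 20 of Tbx4, 19 of Tbx2, 16 of Tbx3 and 4 of Tbx18. Of left-out TA grafts, mouse 1 had 30 of Tbx3, 19 of Tbx15, 17 of Tbx20, 8 of Tbx2 and 5 of Tbx18, mouse 4 had 37 of Tbx18, 17 of Tbx2 and 17 of Tbx3, and mouse 5 had 4 of Tbx20. Tbx1 had no read in the 6 left-out grafts.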

How the results depend on the processing

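Before grafting, the Tbx1 call held under all settings run, the Tbx15 call under all but a single fit over 4 groups, and both in 16 of 16 fits without 1 library. The calls after grafting depended more on the setting. The number of members called before grafting was 2, and 1 in a single fit over 4 groups, when Tbx15 was lost. In TA after grafting it was 3, also with RPM plus 1, all libraries or a single fit. It was 2 with no filter or with experiment as covariate (Tbx3 lost), with centring or without mitochondrial genes (Tbx4 lost) and with a stricter filter (Tbx4 not tested), 1 in Experiment 2 alone, 0 in edgeR and 1 in DESeq2. Without 1 library it ranged from 1 to 3 in TA, with 1 without pre-graft TA of mouse 4 of Experiment 2, and from 1 to 2 in EOM, with 2 without the EOM graft of mouse 4 of Experiment 1. In EOM edgeR and DESeq2 also called 1 member, but Tbx3 in place of Tbx15. With the donor as replicate block, which pairs libraries of the same mouse, 2, 2, 1, 0 and 0 members were called in the order of the text, with Tbx4 in TA lost, and no other call changed.

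Log2 values of members not called turned sign as follows. With all libraries, which adds those of very low depth, Tbx2 before grafting was -0.094, Tbx4 was -0.12, and Tbx20 was 0.89 between grafts and -1.22 for the difference of changes. With RPM plus 1, Tbx20 was 0.00078 and -0.20 there. In edgeR and DESeq2, Tbx3 before grafting was 0.27 and 0.30, Tbx15 in TA after grafting 0.15 and 0.25, Tbx2 in EOM 0.90 and 1.10, Tbx18 in EOM 1.496 and 1.61, Tbx3 between grafts -0.20 and -0.22, Tbx20 between grafts 0.53 and 0.56, and Tbx3 for the difference of changes 0.49 and 0.50. In EOM after grafting, scaling without mitochondrial genes put Tbx2 at 0.81 and Tbx18 at 0.91, and centring put Tbx2 at 0.998, Tbx4 at 0.043 and Tbx18 at 1.09. Between grafts Tbx3 was -0.67 with the replicate block and -0.67 in Experiment 2 alone. Without 1 library, Tbx4 before grafting ranged from -0.025 to 0.75, Tbx2 in EOM from -0.70 to 0.030, Tbx18 in EOM from -0.81 to 0.12, and between grafts Tbx3 from -0.36 to 0.77, Tbx18 from -0.057 to 1.24 and Tbx20 from -0.35 to 0.15, with Tbx20 from -0.21 to 0.72 for the difference of changes. The cause was not tested. Where a member has under about 3 reads, 1 library can set the sign, and not all members that turned were that low. Tbx15 had 4 to 49 reads in pre-graft TA, though none in 3 of the 7 TA grafts set against it.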
